A study of Mus musculus with 28 samples.

Results

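The pentose phosphate and NADPH-making enzymes are described here by 10 genes, chosen by name from textbook pathways: G6pdx, Pgls, Pgd, Rpia, Rpe, Tkt and Taldo1 of the pentose phosphate pathway, and Me1, Idh1 and Mthfd1, cytosolic enzymes that make NADPH outside it. Earlier results of these data were known when the genes were chosen. Each of the 10 symbols was found on exactly 1 row of the 43143 rows that the authors deposited. The study grew mouse 3LL cells, a Lewis lung carcinoma line, in culture and as tumors, and sequenced 28 RNA libraries in 7 groups of 4. WT cells were the parental line. KEAP1-KO cells were made with CRISPR-Cas9 and carry a homozygous insertion of 1 base in exon 2 of Keap1. KEAP1-NRF2 double knockout (DKO) cells were made from the KEAP1-KO cells by a second cut in Nrf2 (Nfe2l2), so they carry the Keap1 insertion too. Each edited line is a clone, so clone and genotype cannot be told apart in any comparison of genotypes. All groups share the 3LL background. Tumors grew under the skin of both flanks of albino C57BL/6 male mice aged 6 weeks and were taken after 10 days. Mice of Experiment A had WT tumors on the left and KEAP1-KO tumors on the right, and mice of Experiment B had KEAP1-KO tumors on the left and DKO tumors on the right. Genotype and flank therefore cannot be told apart within an experiment, and WT and DKO tumors differ in experiment as well. Nothing in the labels says that the 4 libraries of a culture group came from separate cultures, so p-values measure the spread between these libraries, which may be technical.

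NADPH is the reducing agent that regenerates glutathione and thioredoxin and that drives the synthesis of fatty acids and nucleotides. The oxidative branch of the pentose phosphate pathway makes it in 2 steps, glucose-6-phosphate dehydrogenase (G6pdx) and 6-phosphogluconate dehydrogenase (Pgd), with 6-phosphogluconolactonase (Pgls) between them. The non-oxidative branch, made up of ribose-5-phosphate isomerase (Rpia), ribulose-phosphate epimerase (Rpe), transketolase (Tkt) and transaldolase (Taldo1), interconverts sugar phosphates and connects ribose with glycolysis. Malic enzyme (Me1) makes NADPH from malate, isocitrate dehydrogenase (Idh1) from isocitrate, and Mthfd1 handles the one-carbon units of folate. NRF2 is a transcription factor that binds antioxidant response elements as a heterodimer with a small MAF protein, and KEAP1 is the adaptor through which NRF2 is marked for degradation. Several enzymes of the pentose phosphate pathway are known as NRF2 targets.

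The core of the antioxidant response element can be written TGACNNNGC. It was searched on both strands in the RefSeq promoters of build GRCm38.p6, 300 bases that run from 250 before to 50 after a transcription start. All 10 genes matched the promoter table, with 13 windows, and 3 of these windows held the letters, against 12.4% of 32851 promoters in the table. The matches are shown here because they are where the motif stands nearest to the start of the genes described below. The capitals mark the 9 letters of the motif, and each sequence runs 5′ to 3′ on the strand of its gene, the minus strand in all 3 cases.
G6pdx: aggcgggtcaGCTCAGTCAaagcacacgcc
Me1: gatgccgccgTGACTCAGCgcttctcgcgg
Pgd: atttcagagcTGACATTGCactgatcggac
The G6pdx sequence lies at chrX:74428918-74428947, with the motif on the opposite strand from base -57 to base -49 before the start. The Me1 sequence lies at chr9:86695901-86695930 and its motif crosses the start, from base -6 to base 3. The Pgd sequence lies at chr4:149166060-149166089, just after the start of the second of 2 Pgd windows, from base 4 to base 12. These are matches of letters in a short window. They do not show binding, and the windows of the other 7 genes were not searched beyond these 300 bases.

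What a row measures limits every value below. Transcript types were read from GENCODE vM21, a different release from the one the authors name, which was not used here, and they may differ between releases. In vM21 none of the 10 rows is a transcript of a consensus coding sequence. G6pdx (G6pdx-203) and Idh1 (Idh1-206) are short protein coding transcripts, Pgls (Pgls-203) and Rpe (Rpe-204) are marked for nonsense-mediated decay, and Me1 (Me1-204) is a processed transcript. Pgd (Pgd-202), Tkt (Tkt-202), Taldo1 (Taldo1-203), Rpia (Rpia-202) and Mthfd1 (Mthfd1-203) are retained introns. In Pgd-202, 91.1% of the bases lie outside the exons of the consensus coding transcript, in Tkt-202 83.2%, in Mthfd1-203 76.6% and in Taldo1-203 62.8%, so these rows can follow unspliced RNA. In G6pdx-203 that share is 0.24%. A further 20 rows of these genes are listed without a symbol, and they are described after the main comparisons. The values are log2(normalized count + 4), on which a row without reads stands at 2. Between 4222379 and 7524281 reads per library were recovered from them.

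Per kilobase, the 10 rows covered a wide range in WT cells. They are levels of single rows and not of the enzymes. Tkt-209, a Tkt row without a symbol, stood at a mean of 11.15 on the log2 scale, against 6.44 for the Tkt row with the symbol. The mean normalized count per kilobase was 5033 for Mthfd1, 2280 for G6pdx, 1149 for Taldo1, 853 for Pgd, 633 for Rpe and 619 for Pgls. It was 46.1 for Me1, 26.3 for Tkt, 4.08 for Rpia and 1.01 for Idh1. The Idh1 and Rpia rows therefore rested on very few reads, at most 10 and 13 in any library.

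The edits were first checked in the libraries. In KEAP1-KO cells the Keap1 gene row was below its WT level by 1.86 ± 0.07 (SE) on the log2 scale (adjusted p = 2.20e-09) and Nqo1, a quinone reductase and classical NRF2 target, was higher by 3.44 ± 0.07 (adjusted p = 1.36e-11). In DKO cells Nqo1 stood at 6.77 ± 0.09 (SD, n = 4), below its level of 9.01 ± 0.11 in WT cells. The listed Nfe2l2 row, a processed transcript, stood at 4.84 ± 0.25 in KEAP1-KO and 5.06 ± 0.40 in DKO cells and does not check the Nrf2 edit.

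**Figure D1:**
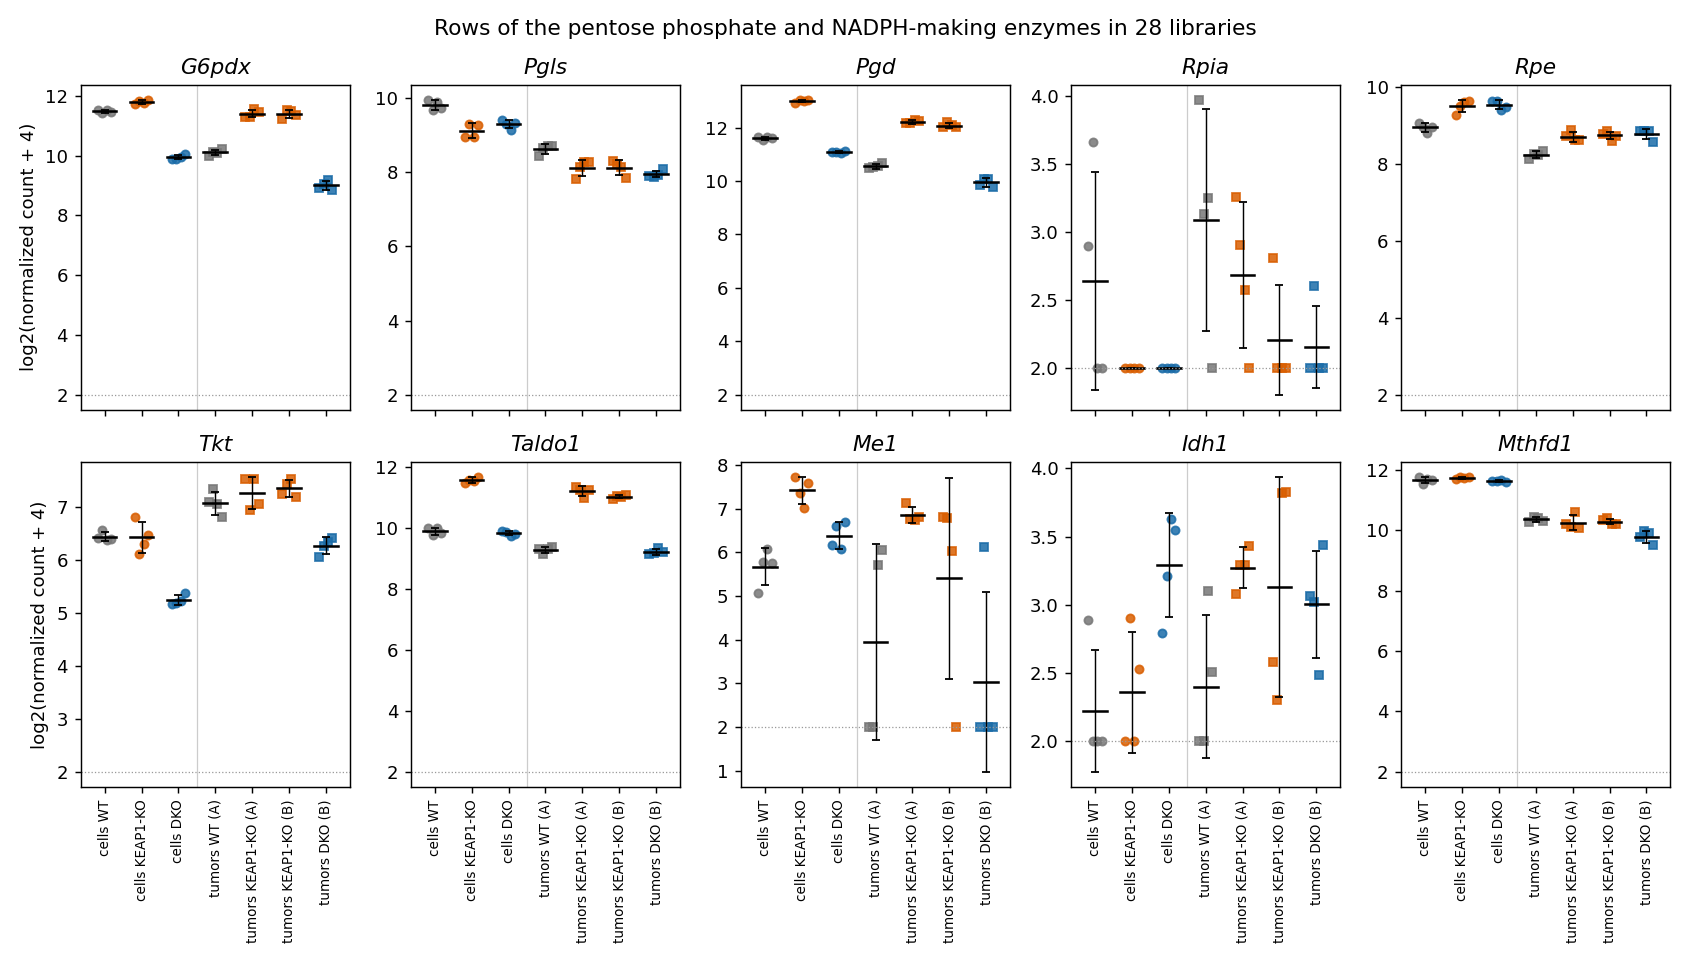
Level of each enzyme row in every library, as log2(normalized count + 4), with 1 point per library, the mean (bar) and SD (whisker) of each group of 4; circles are cultured cells, squares tumors, and the dotted line at 2 marks a row without reads. G6pdx, Pgd and Taldo1 are highest in KEAP1-KO and lower in DKO in both settings, Me1 falls to 2 in 6 of 16 tumors, and Rpia and Idh1 lie near the floor throughout.

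Loss of KEAP1 in cultured cells was examined first, since these libraries hold 3LL cells alone. Of the 10 rows, 8 passed the filter on low values (Rpia and Idh1 did not), 5 were higher in KEAP1-KO than in WT cells and 1 was lower at an adjusted p under 0.05. Across all 29744 rows tested, 8.13% were called higher and 7.33% lower. The median difference of the 8 rows was 0.43, against 0.02 for all rows. Of 8 proliferation markers, 5 were called lower in KEAP1-KO cells and 0 higher. Their summed normalized count was between 17543 and 20046 in WT and between 13058 and 14984 in KEAP1-KO cells. Their part in the differences below was not tested.

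In the oxidative branch, Pgd, the second NADPH-making step, stood at 11.65, 11.53, 11.63 and 11.60 in the 4 WT libraries and at 12.92, 13.03, 12.97 and 13.03 in KEAP1-KO cells. The groups did not overlap, and the difference was 1.39 ± 0.04 (SE, adjusted p = 1.65e-10). G6pdx, the entry step, stood at 11.54, 11.41, 11.52 and 11.45 in WT and at 11.71, 11.83, 11.76 and 11.87 in KEAP1-KO cells. It rose as well, without overlap, but by only 0.31 ± 0.05 (adjusted p = 9.28e-04). Pgls, the lactonase between the 2 dehydrogenases, went the other way. Its libraries lay at 9.95, 9.67, 9.89 and 9.73 in WT and at 8.95, 9.30, 8.94 and 9.26 in KEAP1-KO cells, a fall by 0.70 ± 0.10 on the log2 scale (adjusted p = 2.75e-04).

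In the non-oxidative branch, Taldo1 showed the larger change. It stood at 10.0007, 9.76, 9.99 and 9.84 in WT and at 11.48, 11.58, 11.55 and 11.68 in KEAP1-KO cells, which is 1.67 ± 0.06 higher (adjusted p = 3.77e-09). Rpe rose by 0.55 ± 0.09 (adjusted p = 8.54e-04), from a mean of 8.96 ± 0.12 (SD, n = 4) to 9.51 ± 0.17. The Tkt row was at 6.43, 6.56, 6.38 and 6.40 in WT and at 6.82, 6.12, 6.31 and 6.48 in KEAP1-KO cells. These groups overlapped, with a difference of -0.01 ± 0.14 (adjusted p = 0.974).

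Among the enzymes outside the pathway, Me1 stood at 5.07, 5.77, 6.09 and 5.77 in WT and at 7.73, 7.36, 7.02 and 7.59 in KEAP1-KO cells. It was the largest difference of the 8 rows tested, 1.75 ± 0.23 (adjusted p = 1.62e-04), on 26 to 59 reads in the WT libraries. When all 28 libraries shared 1 fit, in which the spread of Me1 among tumors enters, the same difference had an adjusted p of 0.293. Mthfd1 differed by 0.07 ± 0.04 (adjusted p = 0.341) and was called with quantile normalization (0.13, adjusted p = 0.00948). Idh1 held 0 to 4 reads per library in WT and KEAP1-KO cells and 3 to 9 in DKO cells and was not tested in cells.

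The comparison of DKO with KEAP1-KO cells shows which of these levels differ when NRF2 is deleted besides KEAP1, with clone and genotype not told apart. It shares the KEAP1-KO libraries with the comparison above, so the values stand side by side and their opposite signs are not separate evidence. Of 8 rows tested, 5 were lower in DKO cells and 0 higher, with 4.85% of all rows called lower and 3.98% higher. The median of the 8 rows was -1.11, against -0.03 for all rows.

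Pgd stood at 11.09, 11.08, 11.05 and 11.11 in DKO cells, which is -1.91 ± 0.04 (SE) from KEAP1-KO (adjusted p = 7.62e-12). G6pdx stood at 9.88, 9.90, 9.96 and 10.06, a difference of -1.84 ± 0.05 (adjusted p = 1.32e-10). Taldo1 stood at 9.90, 9.87, 9.73 and 9.82, a difference of -1.74 ± 0.06 (adjusted p = 2.17e-09). None of these groups overlapped with KEAP1-KO cells. Tkt, which had not changed between WT and KEAP1-KO cells beyond its spread, was at 5.18, 5.19, 5.23 and 5.38 in DKO cells and fell by 1.19 ± 0.14 on the log2 scale (adjusted p = 1.08e-04). Me1 stood at 6.16, 6.61, 6.09 and 6.69, which is -1.04 ± 0.23 from KEAP1-KO cells (adjusted p = 0.0113, and 0.692 in 1 fit over all 28 libraries). Rpe (0.03 ± 0.09, adjusted p = 0.898), Pgls (0.17 ± 0.10, adjusted p = 0.379) and Mthfd1 (-0.11 ± 0.04, adjusted p = 0.163) did not pass the test, although the Mthfd1 libraries of DKO cells, from 11.57 to 11.66, all lay below those of KEAP1-KO cells and the row was called with quantile normalization (-0.16, adjusted p = 0.00403) and with scaling without the 20 highest rows (-0.125, adjusted p = 0.0145).

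The levels in DKO cells were then set against WT cells. Of 8 rows, 2 were higher and 4 lower in DKO cells, beside 8.46% of all rows called higher and 9.20% lower. The mean of Taldo1 lay within the range of WT cells and 1 DKO library (9.73) just below it, with a difference of -0.07 ± 0.06 (adjusted p = 0.542). G6pdx was lower than in WT cells by a wide margin, -1.53 ± 0.05 (adjusted p = 1.10e-09), and so were Tkt (-1.20 ± 0.14, adjusted p = 5.40e-05) and Pgd (-0.52 ± 0.04, adjusted p = 9.40e-07). Pgls stayed below WT (-0.53 ± 0.10, adjusted p = 0.00196) and Rpe above it (0.59 ± 0.09, adjusted p = 4.97e-04). Me1 was above WT by 0.71 ± 0.23 with overlapping groups (adjusted p = 0.0484), a call that was lost under 17 of the alternatives.

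**Figure D2:**
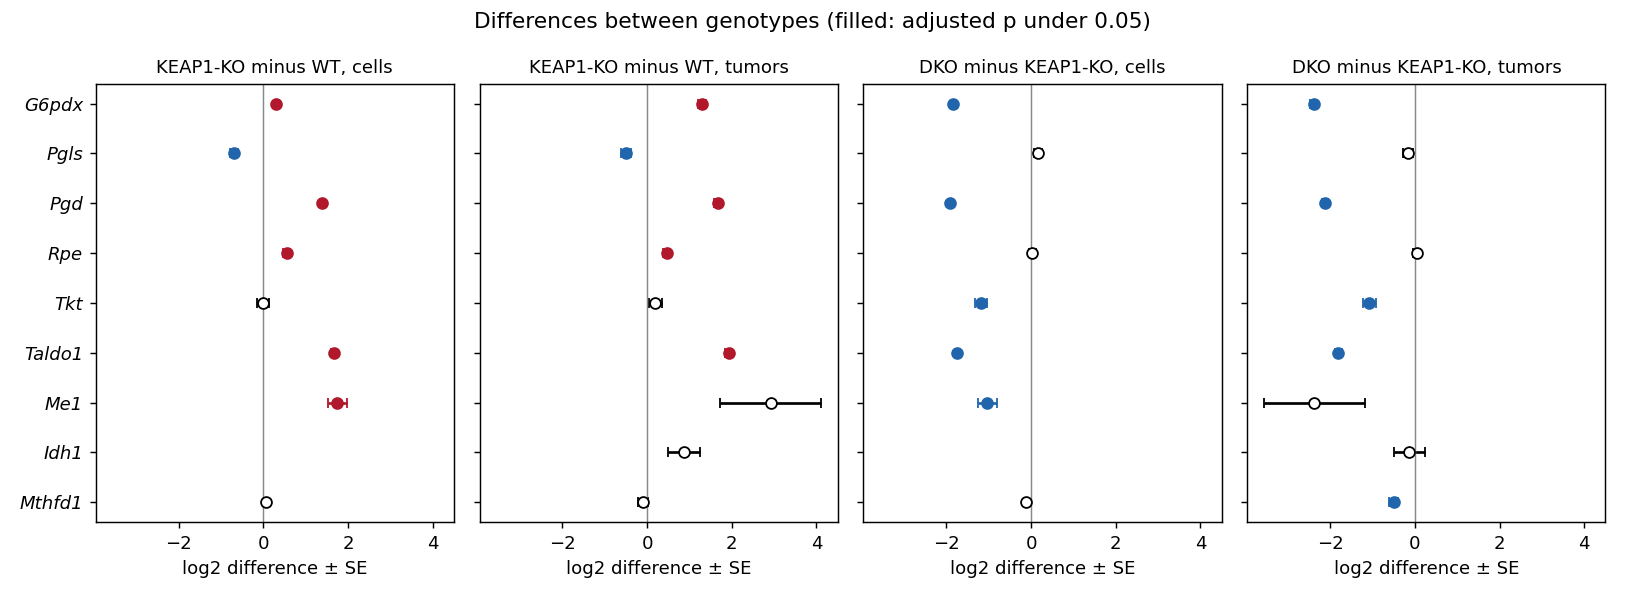
Log2 difference of each enzyme row that was tested, with its standard error, for KEAP1-KO minus WT and DKO minus KEAP1-KO in cells and in tumors (4 libraries per group); filled symbols passed an adjusted p under 0.05, red higher and blue lower. G6pdx, Pgd and Taldo1 are higher after KEAP1 loss and lower after NRF2 co-deletion in all 4 panels, Rpe and Pgls passed the test with KEAP1 loss and not with NRF2 co-deletion, and Me1 has wide errors in tumors.

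In tumors, KEAP1 loss was compared within Experiment A. Of 9 rows that passed the filter (Rpia did not), 4 were higher in KEAP1-KO than in WT tumors and 1 was lower, beside 5.61% of all 34215 rows called higher and 7.49% lower. The median of the 9 rows was 0.87 and that of all rows -0.03. Tumors also hold cells of the mouse. The summed normalized count of 5 leukocyte markers (Ptprc, Cd52, Laptm5, Coro1a and Cd53) was between 1736 and 2123 in WT tumors and between 375.8 and 450.7 in the KEAP1-KO tumors grown alongside them, where all 5 markers were lower. It was between 619.9 and 817.1 in KEAP1-KO and between 1161 and 1829 in DKO tumors of Experiment B, with all 5 markers higher in DKO tumors. Of the 7 macrophage markers, 7 fell with KEAP1 loss and 4 rose with NRF2 co-deletion. Of 4 neutrophil markers 3 fell with KEAP1 loss and 1 rose with NRF2 co-deletion, of 4 adipocyte markers tested 1 fell and 2 rose, and of 5 endothelial markers 0 were called in either. Of 8 proliferation markers, 2 fell with KEAP1 loss and 0 were called with NRF2 co-deletion. The 5 skeletal muscle markers summed to between 21.3 and 292.6 in DKO tumors of Experiment B, against 11.2 to 44.1 in KEAP1-KO tumors of that experiment. The 6 fibroblast markers summed to between 4296 and 11373 in WT and between 1668 and 4468 in the KEAP1-KO tumors of Experiment A, and to between 2412 and 3216 in KEAP1-KO and between 10359 and 14252 in DKO tumors, although only 1 of the 6 was called lower with KEAP1 loss and 3 were called higher with NRF2 co-deletion. The part of these cells in the tumor results was not tested, and in bulk samples fewer cells of a type and less RNA per cell cannot be told apart. In cultured cells, the 5 leukocyte markers summed to at most 8.41. The fibroblast markers were not absent there, with sums between 265.7 and 434.4 in WT, 383.6 and 467.4 in KEAP1-KO and 550.1 and 698.9 in DKO cells, and the macrophage markers summed to between 9.12 and 37.8 in WT and between 105.9 and 117.9 in KEAP1-KO cells.

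Taldo1 showed the largest of the called differences between KEAP1-KO and WT tumors. It stood at 9.30, 9.14, 9.31 and 9.39 in WT and at 11.35, 11.26, 10.98 and 11.24 in KEAP1-KO tumors, which is 1.93 ± 0.08 (SE) higher, or 3.80-fold on the log2(normalized count + 4) scale (adjusted p = 2.16e-10). Pgd stood at 10.47, 10.51, 10.55 and 10.69 in WT and at 12.17, 12.15, 12.29 and 12.26 in KEAP1-KO tumors, 1.66 ± 0.08 higher (adjusted p = 8.27e-10). G6pdx stood at 9.998, 10.11, 10.09 and 10.23 in WT and at 11.30, 11.30, 11.56 and 11.46 in KEAP1-KO tumors, 1.29 ± 0.09 higher (adjusted p = 9.98e-08). In each of these 3 rows every KEAP1-KO tumor lay above every WT tumor.

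Rpe rose from 8.25 ± 0.08 (SD, n = 4) to 8.71 ± 0.13, a difference of 0.47 ± 0.09 (SE, adjusted p = 0.00134), and Pgls fell from 8.62 ± 0.13 to 8.11 ± 0.22, by 0.50 ± 0.12 on the log2 scale (adjusted p = 0.00848). Tkt differed by 0.19 ± 0.15 (adjusted p = 0.496) and Mthfd1 by -0.10 ± 0.11 (adjusted p = 0.653), with overlapping libraries in both rows.

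The Me1 row separated into tumors with reads and tumors without. In WT tumors it was at 2, 2, 5.71 and 6.06, that is 0, 0, 53 and 74 reads, and in KEAP1-KO tumors of Experiment A at 7.14, 6.76, 6.73 and 6.82, that is 90 to 123 reads. The groups did not overlap, but with the spread pooled over the 4 tumor groups the difference of 2.92 ± 1.20 had an adjusted p of 0.137, and of 0.0428 in 1 fit over all 28 libraries. The SD of the row was 2.25 in WT, 0.19 and 2.299 in KEAP1-KO of Experiments A and B, and 2.06 in DKO tumors. Since Salmon divides reads among the transcripts of a gene, a row at 0 says nothing of the gene's other transcripts, and no other transcript of Me1 is listed. Idh1 stood at 2, 2, 3.10 and 2.51 in WT and between 3.08 and 3.43 in KEAP1-KO tumors, on 0 to 7 reads, with a difference of 0.87 ± 0.37 (adjusted p = 0.155).

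In Experiment B, DKO tumors were compared with KEAP1-KO tumors of the other flank. Of 9 rows, 5 were lower in DKO tumors and 0 higher, beside 4.64% of all rows called lower and 4.22% higher. Of the calls over all rows 47.7% were higher, and 61.7% with scaling that left out the 20 highest rows. The median of the 9 rows was -1.08, against 0.00 for all rows. G6pdx changed most among the called rows. Its libraries stood at 11.21, 11.51, 11.50 and 11.34 in KEAP1-KO and at 8.92, 9.04, 9.18 and 8.85 in DKO tumors, a difference of -2.39 ± 0.09 (SE, adjusted p = 6.62e-11), which is 5.25-fold on the log2(normalized count + 4) scale. Pgd stood at 12.02, 12.19, 12.08 and 12.01 in KEAP1-KO and at 9.86, 10.08, 10.08 and 9.77 in DKO tumors, a difference of -2.13 ± 0.08 (adjusted p = 3.36e-11). Taldo1 stood at 10.95, 11.05, 11.02 and 11.07 in KEAP1-KO and at 9.13, 9.16, 9.34 and 9.22 in DKO tumors, a difference of -1.81 ± 0.08 (adjusted p = 4.76e-10). No DKO tumor reached the lowest KEAP1-KO tumor in any of these rows.

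Tkt stood at 7.25, 7.45, 7.54 and 7.19 in KEAP1-KO and at 6.05, 6.27, 6.35 and 6.42 in DKO tumors, a fall by 1.08 ± 0.15 on the log2 scale (adjusted p = 2.14e-04). Mthfd1 lay between 10.19 and 10.39 in KEAP1-KO and between 9.49 and 9.96 in DKO tumors, a fall by 0.50 ± 0.11 (adjusted p = 0.00895). Rpe (0.04 ± 0.09, adjusted p = 0.853), Pgls (-0.17 ± 0.12, adjusted p = 0.481) and Idh1 (-0.13 ± 0.37, adjusted p = 0.901) did not pass the test. Me1 was at 6.80, 6.78, 6.04 and 2 in KEAP1-KO and at 2, 6.13, 2 and 2 in DKO tumors, with a difference of -2.38 ± 1.20 (adjusted p = 0.284). Thus 1 KEAP1-KO tumor had no reads on this row, and 1 DKO tumor had 64.

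The KEAP1-KO tumors of the 2 experiments grew on opposite flanks and allow a comparison within a genotype. Of the 9 rows, 0 were called by limma, with or without voom, beside 0.152% of all rows called higher in Experiment B and 0.0117% called lower. At an unadjusted p under 0.05 there was 1, Taldo1 (0.0291), beside 2632 of all 34215 rows, so that 1 of 9 is near the background. G6pdx differed by -0.01 ± 0.09 (adjusted p = 0.994), Pgd by -0.14 ± 0.08 (adjusted p = 0.685) and Taldo1 by -0.19 ± 0.08 (adjusted p = 0.576). The leukocyte sums of these groups did not overlap.

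DKO tumors of Experiment B were also set against WT tumors of Experiment A. Of 9 rows, 1 was higher and 5 were lower in DKO tumors, beside 4.57% of all rows called higher and 5.99% lower. In the same comparison 3 of 4 neutrophil markers, 3 of 8 proliferation markers and 1 of 5 leukocyte markers were lower and 3 of 6 fibroblast markers higher, and their part was not tested. The neutrophil markers summed to between 372.5 and 1660 in WT and between 180.5 and 254.2 in DKO tumors. Taldo1 differed by -0.07 ± 0.08 (adjusted p = 0.673). G6pdx was lower by 1.11 on the log2 scale (-1.11 ± 0.09, adjusted p = 9.21e-07), and Tkt (-0.80 ± 0.15, adjusted p = 0.00255), Pgls (-0.67 ± 0.12, adjusted p = 0.00141), Pgd (-0.61 ± 0.08, adjusted p = 6.23e-05) and Mthfd1 (-0.57 ± 0.11, adjusted p = 0.00352) were lower too. Rpe was higher by 0.54 ± 0.09 (adjusted p = 5.76e-04). The order of WT and DKO was the same as in cells for G6pdx, Pgd, Tkt, Pgls and Rpe, each called in both settings.

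The other listed transcripts of the same genes were then examined, since a row of a minor transcript need not follow its gene. Of the 20 rows without a symbol, 16 passed the filter in tumors. With KEAP1 loss 6 of the 16 were higher (5.61% of all rows) and 0 lower (7.49%), and with NRF2 co-deletion 6 were lower (4.64%) and 0 higher (4.22%). In cells, 2 of 16 were higher with KEAP1 loss, close to the 8.13% of all rows, and 0 lower (7.33%), while 7 were lower (4.85%) and 0 higher (3.98%) with NRF2 co-deletion. For Pgd, all 3 further rows lay above 0 with KEAP1 loss in tumors, from 0.98 to 1.26, of which Pgd-203 and Pgd-204 were called, and all 3 were called lower with NRF2 co-deletion, from -1.98 to -1.33. G6pdx-204 followed the same course in tumors (0.999 ± 0.27, adjusted p = 0.0201, then -1.72 ± 0.27, adjusted p = 5.30e-04), whereas G6pdx-202 was called in neither comparison (1.14 ± 0.61, adjusted p = 0.281, and -1.21 ± 0.61, adjusted p = 0.287). Taldo1-202 was called higher with KEAP1 loss in tumors (1.67 ± 0.41, adjusted p = 0.0114) but missed the threshold with NRF2 co-deletion, where its groups overlapped (-1.19 ± 0.41, adjusted p = 0.0886). The further rows of Pgls and Rpe did not pass the test with KEAP1 loss, although the rows with the symbol did. Pgls-202 was at -0.18 ± 0.13 in cells (adjusted p = 0.449) and -0.28 ± 0.15 in tumors (adjusted p = 0.275), and Rpe-203 at 0.85 ± 0.46 in cells (adjusted p = 0.271) and 0.16 ± 0.66 in tumors (adjusted p = 0.924).

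The most abundant row of transketolase is Tkt-209, a processed transcript of 14 exons with 4.33% of its bases outside the exons of the consensus coding transcript. It differed from the row with the symbol. In tumors it stood at 10.34, 10.32, 10.28 and 10.20 in WT, at 11.07, 10.79, 11.25 and 10.94 in KEAP1-KO of Experiment A, at 10.80, 10.85, 10.94 and 10.91 in KEAP1-KO of Experiment B and at 9.65, 9.44, 9.55 and 9.39 in DKO. It rose with KEAP1 loss in tumors by 0.73 ± 0.09 (adjusted p = 2.22e-05) and fell with NRF2 co-deletion by 1.37 ± 0.09 (adjusted p = 4.36e-08). In cells it stood at 11.14, 11.12, 11.17 and 11.16 in WT and at 11.09, 11.01, 11.08 and 11.19 in KEAP1-KO, and fell in DKO cells to between 9.98 and 10.20, by 1.05 ± 0.05 (adjusted p = 5.51e-08). When the 7 listed rows of Tkt were summed, an alternative chosen after the data were seen that covers 7 of 9 annotated transcripts and not the consensus coding one, the sum rose with KEAP1 loss in tumors by 0.69 ± 0.08 (adjusted p = 7.16e-06) and differed by -0.05 ± 0.05 in cells (adjusted p = 0.488).

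**Figure D3:**
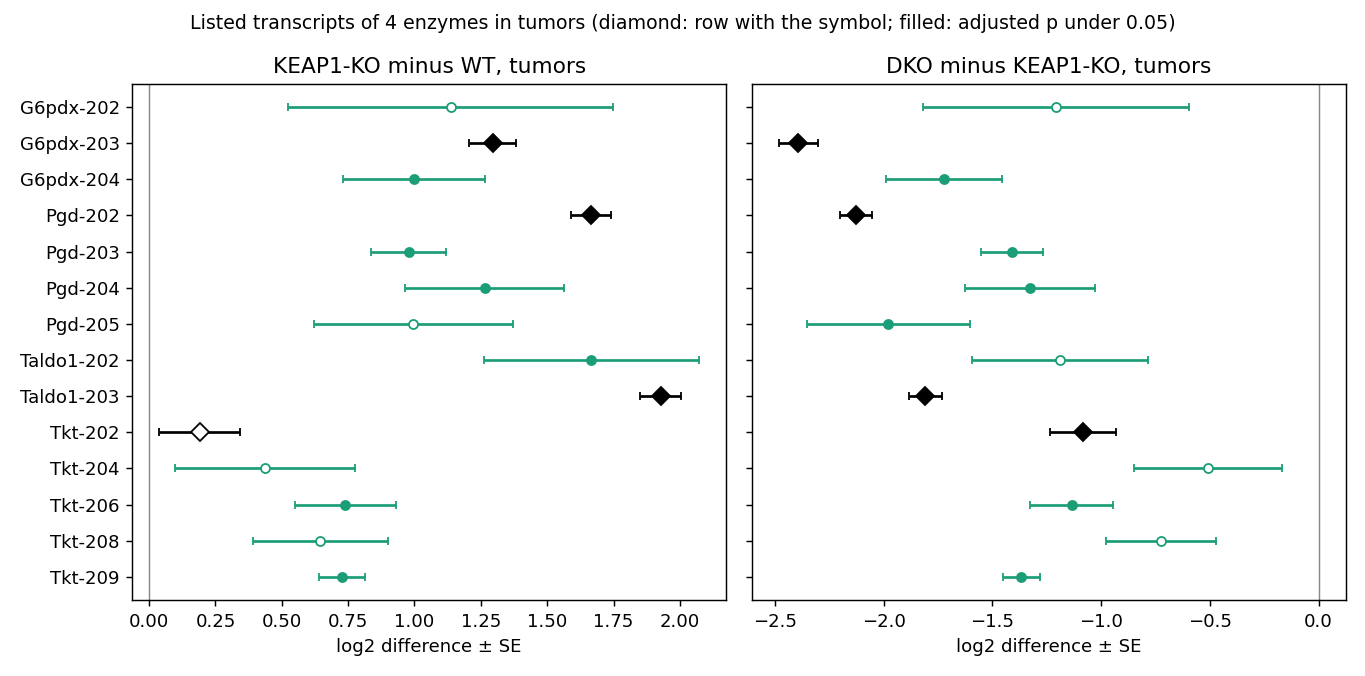
Log2 difference with its standard error in tumors (4 per group) for the tested transcripts of G6pdx, Pgd, Taldo1 and Tkt; diamonds are the rows that carry the gene symbol, circles the rows without one, and filled symbols passed an adjusted p under 0.05. All rows lie above 0 with KEAP1 loss and below 0 with NRF2 co-deletion, and the Tkt row with the symbol (0.19) is the lowest of the 5 Tkt rows with KEAP1 loss, while Tkt-209 is at 0.73.

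Whether these effects differ between tumors and cells was tested as an interaction in 1 fit over all 28 libraries, in which all 10 rows passed the filter. For KEAP1 loss 1 of 10 rows was called higher and 0 lower in tumors, beside 1.50% of all 37246 rows called higher and 3.88% lower. This row was G6pdx, whose difference was 0.98 ± 0.11 (SE) greater in tumors than in cells (adjusted p = 7.82e-07). Its level in WT tumors was 10.11 ± 0.09 (SD, n = 4) against 11.48 ± 0.06 in WT cells, whereas KEAP1-KO tumors of Experiment A (11.40 ± 0.13) and KEAP1-KO cells (11.79 ± 0.07) lay closer together. Pgd missed the threshold (0.28 ± 0.09, adjusted p = 0.0607) and was called under 6 alternatives. Among these was the fit with the replicate number as a block (adjusted p = 0.0195). Taldo1 also missed it (0.25 ± 0.10, adjusted p = 0.191). Tkt-209 showed such an interaction (0.78 ± 0.10, adjusted p = 1.40e-05), the row with the symbol did not (0.20 ± 0.21, adjusted p = 0.714). For NRF2 co-deletion 1 of 10 rows was called lower and 0 higher, beside 1.55% of all rows called lower and 2.12% higher, and it was again G6pdx, with -0.55 ± 0.11 (adjusted p = 0.00233). Of the calls over all rows, 27.9% were higher in the KEAP1 interaction and 57.7% in the NRF2 interaction, which median centring moved to 54.8% and 42.7% and scaling without the 20 highest rows to 20.9% and 71.8%. The leukocyte sums given above differ between the tumor groups, and their part in these differences was not tested.

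**Figure D4:**
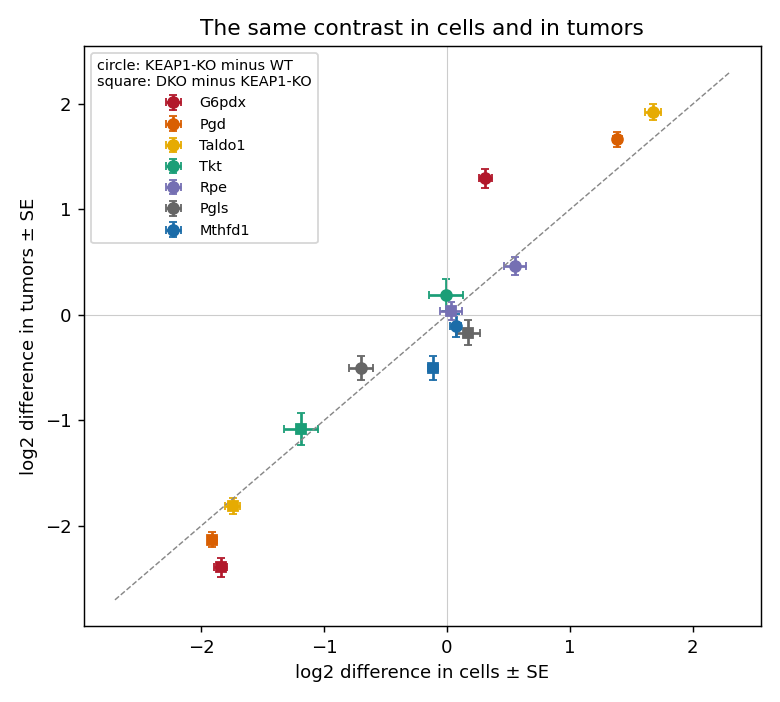
Log2 difference in tumors against that in cells, each with its standard error, for 7 enzyme rows; circles are KEAP1-KO minus WT, squares DKO minus KEAP1-KO, and the dashed line marks equal differences. G6pdx lies off the line for KEAP1 loss (0.31 in cells, 1.29 in tumors), while Taldo1 (1.67 and 1.93) and Pgd (1.39 and 1.66) lie near it.

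Tumors were last compared with cultured cells of the same genotype. The median of all rows was higher in tumors by 0.20 for WT, 0.16 and 0.17 for KEAP1-KO of Experiments A and B, and 0.23 for DKO, and a difference of this size is that of the middle row. Of the 10 enzyme rows, 1 was higher and 6 lower in WT tumors, beside 24.7% and 14.1% of all rows. Among KEAP1-KO tumors 2 rows were higher and 6 lower in Experiment A (23.9% and 15.8% of all rows), and 1 was higher and 6 lower in Experiment B (23.9% and 14.9%), while in DKO tumors 1 was higher and 7 lower (27.6% and 15.9%). The additional higher row in Experiment A was Idh1, near the floor, at 0.91 ± 0.34 (SE, adjusted p = 0.0355). The additional row in DKO was Me1, at -3.35 ± 0.96 (SE, adjusted p = 0.00602), with 3 of 4 tumors without reads and overlapping groups, and its call was lost with voom (adjusted p = 0.0998). With median centring the share of calls that were higher, over all rows, fell from 63.6% to 35.3% in WT, from 60.3% to 43.5% and from 61.7% to 41.3% in KEAP1-KO of Experiments A and B, and from 63.5% to 40.1% in DKO, whereas scaling without the 20 highest rows raised it to 79.5%, 74.2%, 76.8% and 79.4%.

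Mthfd1 was lower in tumors of all genotypes, by between 1.31 (WT) and 1.84 (DKO) on the log2 scale, and Pgls by between 0.998 (KEAP1-KO of Experiment A) and 1.34 (DKO). Pgd fell by 1.05 in WT, 0.77 and 0.92 in KEAP1-KO of Experiments A and B, and 1.14 in DKO, and Rpe by 0.71, 0.80, 0.77 and 0.76. With quantile normalization these 4 rows kept their calls at smaller sizes, between -1.16 and -0.71 for Mthfd1, -0.95 and -0.67 for Pgls, -0.46 and -0.29 for Pgd and -0.43 and -0.24 for Rpe. Of the 18 further transcripts tested, 2 were higher and 1 lower in WT tumors, beside 24.7% and 14.1% of all rows. In KEAP1-KO tumors 6 were higher and 0 lower in Experiment A (23.9% and 15.8%), and 2 and 1 in Experiment B (23.9% and 14.9%). In DKO tumors 4 were higher and 1 lower (27.6% and 15.9%). Pgd-203 was higher in WT tumors (1.04 ± 0.18, adjusted p = 3.95e-05), opposite to the Pgd row with the symbol, Pgd-203 and Pgd-204 were higher in KEAP1-KO of Experiment A (0.50 and 0.96), and all 3 further Pgd rows were higher in DKO, from 0.76 to 1.20. G6pdx was at -1.37 ± 0.08 (SE) in WT and -0.95 ± 0.08 in DKO, and at -0.39 ± 0.08 and -0.40 ± 0.08 in KEAP1-KO of Experiments A and B, where quantile normalization turned its direction (0.18 and 0.22) and scaling without the 20 highest rows ended the call (-0.062, adjusted p = 0.497, and -0.043, adjusted p = 0.647). Taldo1 was at -0.62 ± 0.07 in WT and in DKO and at -0.37 ± 0.07 and -0.55 ± 0.07 in KEAP1-KO of Experiments A and B. Quantile normalization turned it in KEAP1-KO of Experiments A (0.18, adjusted p = 0.0408) and B (0.03, adjusted p = 0.766, no longer called). It ended the Taldo1 call in DKO (-0.051, adjusted p = 0.589), and scaling without the 20 highest rows ended it in KEAP1-KO of Experiment A (-0.036, adjusted p = 0.677). The Tkt row with the symbol was higher in tumors, by 0.64 ± 0.15 in WT, 0.84 ± 0.15 and 0.93 ± 0.15 in KEAP1-KO of Experiments A and B and 1.03 ± 0.15 in DKO, and median centring ended the WT call (0.24, adjusted p = 0.185). The sum of the listed Tkt rows was lower in WT (-0.73) and DKO tumors (-0.39) and was not called in KEAP1-KO of Experiments A (0.012, adjusted p = 0.901) and B (-0.12, adjusted p = 0.143). Proliferation markers, 8 genes, summed to between 13058 and 20046 in cells and between 3663 and 6978 in tumors, and their part in these differences was not tested.

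The order of the 7 group levels summarises each enzyme. For G6pdx it ran from KEAP1-KO cells (11.79) through WT cells (11.48), KEAP1-KO tumors of Experiments A (11.40) and B (11.39), WT tumors (10.11) and DKO cells (9.95) to DKO tumors (8.999). The libraries of WT cells overlapped with those of KEAP1-KO tumors of Experiment A, those of both KEAP1-KO tumor groups with each other, and those of WT tumors with those of DKO cells. For Tkt the order ran from KEAP1-KO tumors of Experiment B (7.36) to DKO cells (5.25), and for Me1 from KEAP1-KO cells (7.42) to DKO tumors (3.03). Across the 28 libraries Pgd correlated with Taldo1 at r = 0.949 and with G6pdx at r = 0.932, and after each group's mean was taken off these values were 0.246 and 0.838. These are descriptions over libraries that share genotype, setting and depth.

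Among 16555 rows with a symbol, those most like each enzyme across the 28 libraries were taken by Pearson r, as a description of the pattern. For Pgd they were Esd (0.993), Txnrd1 (0.983), the cytosolic thioredoxin reductase, and Gclc (0.981), the catalytic subunit of the enzyme that begins glutathione synthesis. For Taldo1 they were Srxn1 (0.981), which is sulfiredoxin, Tsku (0.980) and Layn (0.979), and for G6pdx Pir (0.963), Gstm1 (0.959), a glutathione S-transferase, and Fth1 (0.959), the heavy chain of ferritin. Tkt was most like Bcl2l11 (0.929), Greb1 (0.924) and Pbxip1 (0.910). Mthfd1 followed G3bp1 (0.994), Fbl (0.994) and Nop56 (0.993), the latter pair being proteins of the nucleolus. Pgls was nearest to S100a10 (0.975), Prelid1 (0.974) and Znrd2 (0.973), and Rpe to Ptp4a1 (0.965) and Septin2 (0.961). The likeness was lower for the other 3 members. The nearest to Me1 were Prkaa1 (0.764), BC030500 (0.754) and Ppp2cb (0.7515), to Idh1 Pitpnc1 (0.785), Cdyl2 (0.717) and Marchf9 (0.716), and to Rpia Dlg3 (0.750), Tmem131l (0.675) and Tent4a (0.636).

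A further 23 genes of ribose metabolism and of NADP(H) making and supply were considered, of which 20 were listed, on 21 rows. In cells 19 rows were tested. With KEAP1 loss 3 were higher and 3 lower (8.13% and 7.33% of all rows), with a median of 0.04 against 0.02 for all rows. With NRF2 co-deletion 3 were higher and 1 lower (3.98% and 4.85%), with a median of 0.23 against -0.03. In tumors 20 rows were tested. With KEAP1 loss 3 were higher and 2 lower (5.61% and 7.49%), with a median of 0.05 against -0.03, and with NRF2 co-deletion 1 was higher and 2 lower (4.22% and 4.64%), with a median of 0.04 against 0.00. Prps2, a synthetase of phosphoribosyl pyrophosphate, which uses the ribose phosphate of the pathway, fell with KEAP1 loss by 1.12 ± 0.09 in cells (adjusted p = 2.85e-06) and by 1.22 ± 0.15 in tumors (adjusted p = 2.71e-05) and was not called with NRF2 co-deletion in either. Prpsap2, a partner of these synthetases, rose by 0.36 ± 0.10 in cells (adjusted p = 0.0223) and 0.56 ± 0.15 in tumors (adjusted p = 0.0221).

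Nadk2, the mitochondrial NAD kinase, rose with KEAP1 loss by 1.16 ± 0.20 (adjusted p = 8.89e-04) and fell with NRF2 co-deletion by 1.002 ± 0.20 (adjusted p = 0.00423) in tumors. In cells it was called in neither comparison (0.53 ± 0.56, adjusted p = 0.616, and -0.94 ± 0.56, adjusted p = 0.404). Aldh1l2, the mitochondrial enzyme that makes NADPH from formyl-tetrahydrofolate, fell with KEAP1 loss by 1.43 ± 0.04 (adjusted p = 5.05e-10) and rose with NRF2 co-deletion by 1.55 ± 0.04 (adjusted p = 1.37e-10) in cells. It was not called in tumors, and both of its differences between tumors and cells were called (1.48 ± 0.25, adjusted p = 2.93e-04, and -1.83 ± 0.25, adjusted p = 4.22e-05). Gpi1, glucose-6-phosphate isomerase, which competes with G6pdx for its substrate, was lower in DKO than in KEAP1-KO cells (-0.68 ± 0.17, adjusted p = 0.0232) and tumors (-0.65 ± 0.19, adjusted p = 0.0462). Me2, the mitochondrial malic enzyme, was higher in DKO cells (0.53 ± 0.05, adjusted p = 1.11e-05) and tumors (0.46 ± 0.10, adjusted p = 0.00747). These 6 rows, too, are retained introns or processed transcripts.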

How the data were processed

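RNA-seq values of 28 libraries were used, 12 of cultured 3LL cells and 16 of tumors, in 7 groups of 4 taken from the sample titles. The labels' extraction text speaks of livers, against the titles and the methods, which were followed. The authors removed ribosomal RNA, made strand-specific libraries and quantified reads with Salmon against GENCODE mouse transcripts. The methods speak of TPM, but the deposited values follow log2(normalized count + 4): their minimum is 2 in every library, and with the log undone 100% of the values up to 20 reads came out as whole reads (tolerance 0.05). The design had assumed another unit, so its limma test was run on these log2 values. Depth was 4222379 to 7524281 reads per library, and 13.9% to 23.5% of rows had none. Columns of no sample numbered 0.

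Transcripts were named through GENCODE vM21 (97.0% of identifiers found). Its exon coordinates also gave the row lengths and the shares of bases outside consensus coding exons. Promoters came from RefSeq, build GRCm38.p6.

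The test was limma's moderated test (limma 3.58.1 under R 4.3.3, eBayes with a trend, two-sided), for rows that reached 5 normalized counts in 4 or more libraries. There was 1 fit for the 3 cell groups, 1 for the 4 tumor groups and 1 for all libraries (tumors against cells, interactions), with Benjamini-Hochberg adjustment over all rows tested and a threshold of 0.05. The fit was tested on simulated data. The text names all 10 members, the label checks, up to 3 called pathway genes per comparison of adjacent genotypes, and the 3 rows most like each member whose group means span over 1, of which 1 row is not reported here. The other transcripts of the members, Tkt-209 above all, were chosen after their values were seen. Members and lists were chosen with earlier results of these data known. Alternatives were pseudocounts of 0.4 and 1, no filter, a mean of at least 25, median centring, quantile normalization, scaling that leaves out the 20 highest rows, other sets of libraries in the fit, no trend, a replicate block, each library left out, an adjusted p under 0.01, an absolute difference of at least 1, voom on whole reads, and sums of rows. The sum over all listed rows of a gene was added after the data were seen.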

Additional observations from a re-analysis of the deposited data

Results flagged for a closer look

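Of 70 groups of 4 libraries checked (10 rows in 7 groups), 6 held a library far from the other 3 by Dixon's ratio of its gap to the group's range. Chance alone gives about 1 in 20 groups for values that vary freely. In 4 of the 6 the other 3 libraries all stood at 2, without reads, where the ratio is 1 by construction and that rate does not apply.

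Me1 gave a pair of them. In KEAP1-KO tumors of Experiment B the lowest library stood at 2, without reads (ratio 0.841), and in DKO tumors the highest stood at 6.13 with the other 3 at 2 (ratio 1). Rpia had 1 library with reads among 4 in KEAP1-KO tumors of Experiment B (2.81, ratio 1) and in DKO tumors (2.60, ratio 1), and Idh1 in WT cells (2.89, ratio 1), on 2 or 3 reads each. Rpe in DKO tumors had its lowest library at 8.59, with the other 3 between 8.85 and 8.86 (ratio 0.98).

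The effect on G6pdx differed between tumors and cells by the test of the interaction, by 0.981 for KEAP1 loss (adjusted p = 7.82e-07) and by -0.552 for NRF2 co-deletion (adjusted p = 0.00233).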

How the results depend on the processing

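Over 2885 single differences recomputed, 2730 kept their direction and side of the threshold, 70 lost a call, 23 gained one, 7 calls turned, and 55 that were called under neither setting changed sign. The called differences that changed sign were those of tumors against cells named above. With all listed rows of a gene summed, Tkt turned in WT (-0.73), in DKO (-0.39) and in KEAP1-KO of Experiment B (-0.12, no longer called, adjusted p = 0.143). With quantile normalization, G6pdx turned in KEAP1-KO of Experiments A and B (0.18 and 0.22). Taldo1 turned there too, in A (0.18) and in B (0.031, no longer called, adjusted p = 0.766). The cause was not tested.

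A minimum absolute difference of 1 left, by construction, 3 of 5 member rows called with KEAP1 loss in tumors, 1 of 6 in DKO against WT tumors, 3 of 6 with KEAP1 loss in cells, 2 of 6 in DKO against WT cells, 4 of 7 in WT tumors against cells, 1 of 8 and 1 of 7 in KEAP1-KO tumors of Experiments A and B against cells, 5 of 8 in DKO tumors against cells, and 0 of 1 in both interactions. The 1 row called in the KEAP1 interaction became 2 with a mean filter of 25, quantile normalization, the groups compared alone or the replicate block, and 3 with median centring or summed rows. With single libraries left out it ranged from 1 to 2 (2 without WT tumor 4, which added Pgd, or KEAP1-KO tumor 3 of Experiment A, which added Taldo1). The NRF2 interaction became 2 with median centring. The cause was not tested.

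Me1 in DKO against WT cells was called with an adjusted p of 0.0484, and leaving out WT library 1, 2 or 4 or DKO library 1, 2 or 4 lost the call (adjusted p from 0.0541 to 0.127). Idh1 in KEAP1-KO tumors of Experiment A against cells (adjusted p = 0.0355) lost its call without KEAP1-KO tumor 2, 3 or 4 or KEAP1-KO cell library 1 or 3 (0.0608 to 0.101). The call was also lost with quantile normalization (0.76, adjusted p = 0.106) and with median centring (0.68, adjusted p = 0.134).

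With the replicate number as a block, the members called stayed at 5 with KEAP1 loss and 5 with NRF2 co-deletion in tumors and at 6 and 5 in cells, and went from 6 to 5 in DKO against WT cells, where Me1 was lost. Same-numbered libraries correlated between -0.069 and 0.0876 over 20 pairs, and 6 of 20 matched their own number best. The matches were uneven. In WT against DKO cells every library matched its own number best (r from 0.0327 to 0.0876), and in tumors r ran from -0.0565 to 0.0623. The numbers were not taken as pairs in the main fits. The sample titles do not say which tumors shared a mouse, so these values do not settle the pairing of tumors. Rescaling without the 20 highest rows moved the share of higher calls over all rows from 43.3% to 59.9% in DKO against WT tumors and from 47.7% to 61.7% with NRF2 co-deletion in tumors.

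Rows near the floor, Rpia and Idh1, rest on at most 13 reads, and their differences are understated on this scale.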
